A study of Mus musculus with 6 samples.

Results

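The cytosolic chaperonin CCT, also called TRiC, is described here through the transcripts of its 9 mouse subunit genes: Tcp1, Cct2, Cct3, Cct4, Cct5, Cct6a, Cct6b, Cct7 and Cct8. The members are the probe sets that the array annotation gives to one of these genes and to no other, 26 of the 45037 probe sets tested, and the genes are 9 of the 18193 with a probe set of their own. No measured value entered the rule. A probe set is a group of short probes on the array that together read a transcript or part of it. Some classes of probe set can match several transcripts, and 11 of the 26 belong to none of these classes. Cct3 and Cct4 had 7 probe sets each, Cct2 had 3, Cct6a, Cct7 and Cct8 had 2 each, and Tcp1, Cct5 and Cct6b had 1 each. The genes are spread over chromosomes 17 (Tcp1), 10 (Cct2), 3 (Cct3), 11 (Cct4 and Cct6b), 15 (Cct5), 5 (Cct6a), 6 (Cct7) and 16 (Cct8).

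The arrays held RNA of freshly dissected testes of adult mice, 3 transgenic mice that carry a DREAM mutant labelled as constitutively active, and 3 wild-type mice. All 6 were C57BL/6 x CBA hybrids. DREAM, encoded by Kcnip3, is a calcium-binding repressor of transcription that leaves its DNA sites when calcium binds. The labels do not name the transgene's promoter, the cells that express it or the number of founder lines, and testis RNA is a mixture of germ cells and somatic cells.

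CCT is a barrel of a pair of stacked rings that encloses unfolded proteins and uses ATP to fold them. Each ring holds one copy of each kind of subunit. Actin and tubulin are its best known clients, and prefoldin delivers them to it. The subunits differ in how tightly they bind ATP, with Tcp1, Cct2, Cct4 and Cct5 on the tight side of the ring in yeast and mammals and Cct3, Cct6a and Cct8 on the other. Mammals have a second zeta subunit, Cct6b, a paralogue of Cct6a that is found mainly in testis. Tcp1 takes its name from the t-complex of mouse chromosome 17 and was studied early for its abundance in male germ cells.

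Array medians lay between 6.05 and 6.08 in transgenic and between 5.99 and 6.08 in wild-type testis (log2 intensity). Elongating spermatid markers (Prm1, Prm2, Tnp1, Tnp2, Odf1 and Gapdhs) averaged 13.73 to 13.78 per array in transgenic and 13.73 to 13.76 in wild-type testis, and none of the 6 passed the test. Of all probe sets, 200 had a limma adjusted p under 0.05, or 0.444%. Wild type replicate 2 stood apart on the first principal component, at -42.2 where the other 5 arrays lay between -5.27 and 23.3. Kcnip3 averaged 7.27 ± 0.11 in transgenic and 7.21 ± 0.11 in wild-type testis (SD, n = 3, limma adjusted p = 0.974), with its brighter probe set. The other Kcnip3 probe set gave a difference of 0.14 (limma adjusted p = 0.909). The match of either probe set to the transgene is not known, and whether the mutant was active in these testes was not tested. As a sign of RNA integrity, the Gapdh 3' control probe set minus the 5' one gave 0.27 ± 0.06 in transgenic and 0.11 ± 0.05 in wild-type testis (SD, n = 3; exact permutation p = 0.1, two-sided, the smallest that 3 against 3 can give). The like difference of Actb was 0.53, 0.47 and 0.49 in transgenic and 0.50, 0.41 and 0.50 in wild-type testis, and there the groups overlapped.

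Set against wild type, the transgenic testes show whether chaperonin transcripts stand at another level in mice labelled as carrying active DREAM. None of the 26 probe sets passed the test (limma, adjusted p under 0.05; smallest adjusted p = 0.718), beside 0.444% of all probe sets. At an unadjusted p under 0.05 there was 1 of 26, or 3.85%, beside 6.69% of all probe sets. In 1 of 26 the groups did not overlap (3.85%), beside 11.3% of all. The differences were above 0 in 19 and below 0 in 7, with a median of 0.03 on the log2 scale beside 0.02 over all probe sets. In whole testis, fewer cells of a type and less RNA per cell cannot be told apart.

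Taken by the brightest probe set of each gene, the 9 subunits differed by -0.06 to 0.10 between the groups on the log2 scale, and the groups overlapped in all 9. Their 95% intervals lay between -0.27 and 0.42, which as ratios of intensity is 0.832-fold to 1.34-fold. These bounds hold for the fit with genotype alone. With the Gapdh difference as a covariate, Cct8 read 0.45, past the upper bound (limma adjusted p = 0.56). The Gapdh difference was higher in every transgenic array (0.21 to 0.33) than in any wild-type one (0.06 to 0.16). With 6 arrays that fit therefore separates genotype from the covariate only poorly. All 9 had a mean above 10, and 14 of the 26 probe sets had a mean of at least 11. The median size of their differences, sign left aside, was 0.04, beside 0.05 for the 2582 probe sets of all genes with a mean of at least 10. Their residual SD within groups had a median of 0.0628, beside 0.0778 for those bright probe sets. Small differences and a small spread were thus common to bright probe sets on these arrays.

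**Figure D1:**
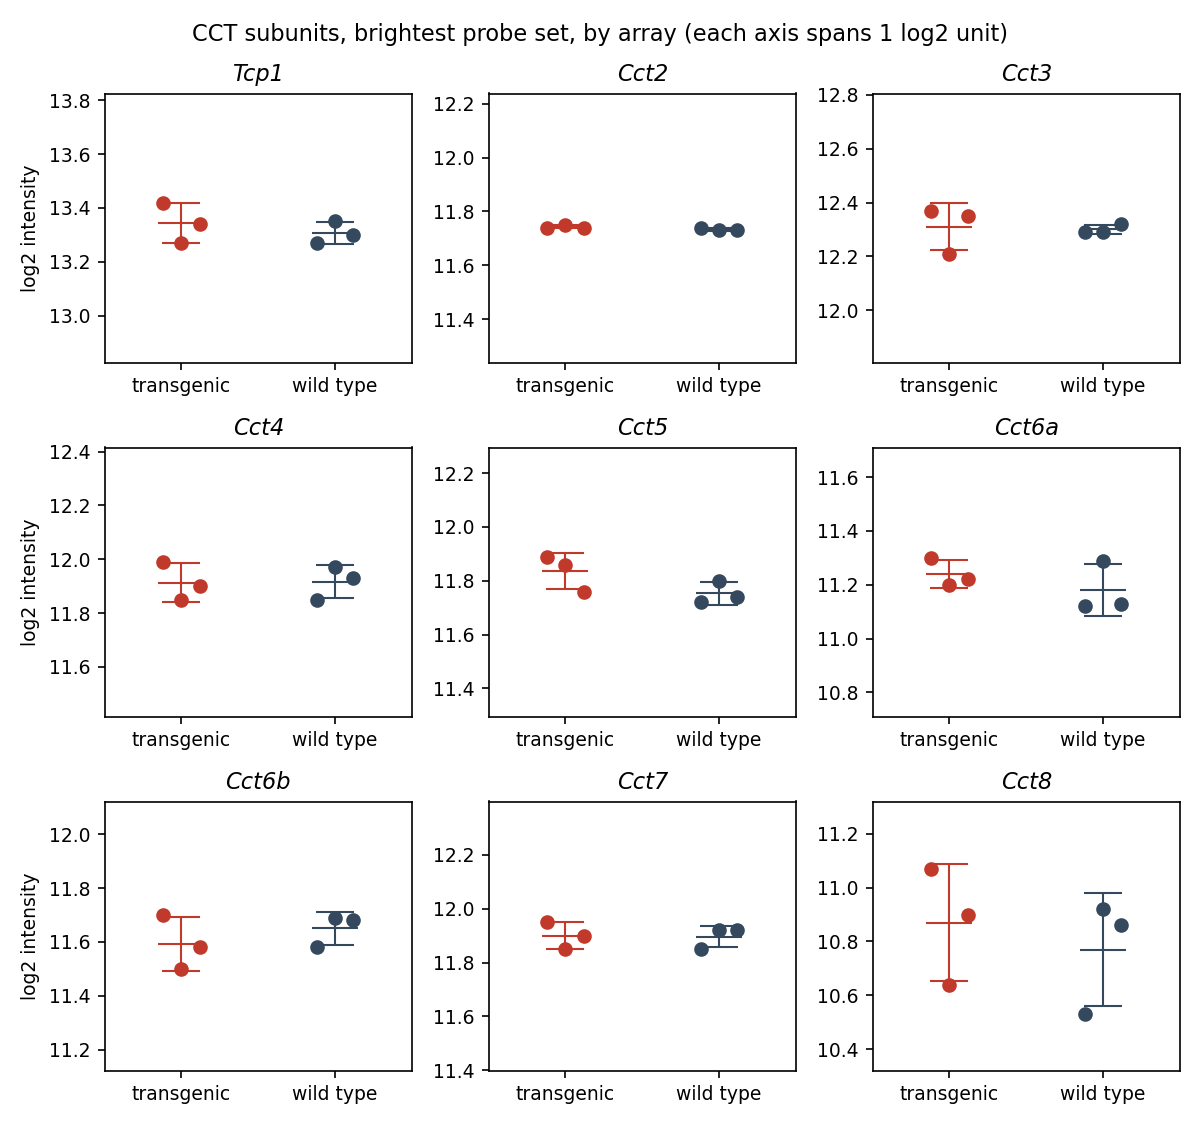
Log2 intensity of the brightest probe set of each CCT subunit in 3 transgenic (left) and 3 wild-type (right) testis arrays; points are arrays, bars the mean and SD. Each panel spans 1 log2 unit, the groups overlap in all 9 panels, and Cct8 has the widest scatter, with a range of 0.54 over the 6 arrays against 0.02 for Cct2.

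Among the subunits that bind ATP tightly, Tcp1, the alpha subunit, read 13.42, 13.27 and 13.34 in transgenic testis and 13.27, 13.35 and 13.30 in wild type. The lowest array of each group had the same reading. Its difference was 0.04 (SE 0.09, 95% interval -0.16 to 0.23, limma adjusted p = 0.983). Cct5, the epsilon subunit, read 11.89, 11.86 and 11.76 in transgenic and 11.72, 11.80 and 11.74 in wild-type testis. Transgenic replicates 1 and 2 lay above all wild-type arrays and replicate 3 among them. Cct5 had the smallest p of the 9 brightest probe sets, with a difference of 0.08 (SE 0.09, 95% interval -0.11 to 0.28) and an adjusted p of 0.956.

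Cct4, the delta subunit, read 11.99, 11.85 and 11.90 in transgenic and 11.85, 11.97 and 11.93 in wild-type testis with its brightest probe set, and the means of 11.91 ± 0.07 in transgenic and 11.92 ± 0.06 in wild type (SD, n = 3) differed by less than either SD. The 95% interval of the difference was -0.20 to 0.20. Its other 6 probe sets gave differences between -0.03 and 0.18. The largest came from a probe set of the class that can match several transcripts, at 6.91, 6.78 and 6.97 in transgenic and 6.74, 6.53 and 6.85 in wild-type testis. There 2 of the 3 transgenic arrays exceeded all wild-type arrays, and the adjusted p was 0.864. A pair of Cct4 probe sets had means of only 4.51 and 4.02, far under the array medians, and RMA gives no detection call to say whether they read transcript.

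Cct2, the beta subunit, was the steadiest of the 9. Its brightest probe set read 11.74, 11.75 and 11.74 in transgenic and 11.74, 11.73 and 11.73 in wild-type testis, a range of 0.02 over all 6 arrays. The difference was 0.01 (95% interval -0.17 to 0.19), an interval set mostly by the spread limma borrows from other probe sets, since its own residual SD was 0.00577. Its other probe sets gave 0.02 and -0.07, with adjusted p of 0.993 and 0.968.

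Cct7, the eta subunit, was not assigned above to either side of the ring. It read 11.95, 11.85 and 11.90 in transgenic and 11.85, 11.92 and 11.92 in wild-type testis. Both groups averaged 11.90, and the 95% interval of the difference was -0.19 to 0.19 (adjusted p = 0.995). Its other probe set gave 0.04 (adjusted p = 0.982).

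Of the subunits on the other side of the ring, Cct3, the gamma subunit, read 12.37, 12.21 and 12.35 in transgenic and 12.29, 12.29 and 12.32 in wild-type testis. The transgenic arrays lay on both sides of the wild-type ones. The difference was 0.01 (SE 0.09, adjusted p = 0.994). Its 7 probe sets had means from 5.41 to 12.30 and differences from -0.01 to 0.07, with adjusted p from 0.972 to 0.995.

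Cct8, the theta subunit, had the widest scatter. With its bright probe set it read 11.07, 10.64 and 10.90 in transgenic and 10.53, 10.92 and 10.86 in wild-type testis. Each group held a low array, transgenic replicate 2 and wild type replicate 1, and the other 4 lay within 0.21 of each other. The SDs were 0.22 in transgenic and 0.21 in wild-type testis, and the difference was 0.10 (SE 0.14, 95% interval -0.22 to 0.42, adjusted p = 0.971). It was -0.02 without wild type replicate 1 (adjusted p = 0.985).

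The other probe set of Cct8 was the one of the 26 with an unadjusted p under 0.05 (0.0401) and with groups that did not overlap. It read 3.67, 3.54 and 3.72 in transgenic and 3.78, 4.51 and 3.89 in wild-type testis, far under the array medians of 5.99 to 6.08. Most of the difference of -0.42 (SE 0.17, adjusted p = 0.718) came from wild type replicate 2. Without that array the difference was -0.19 (adjusted p = 0.498), and with the Gapdh covariate it was 0.00 (adjusted p = 0.999). The bright and the dim probe set of Cct8 gave opposite signs, and neither passed. Which part of the transcript, exon or intron, the dim one reads was not settled here.

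**Figure D2:**
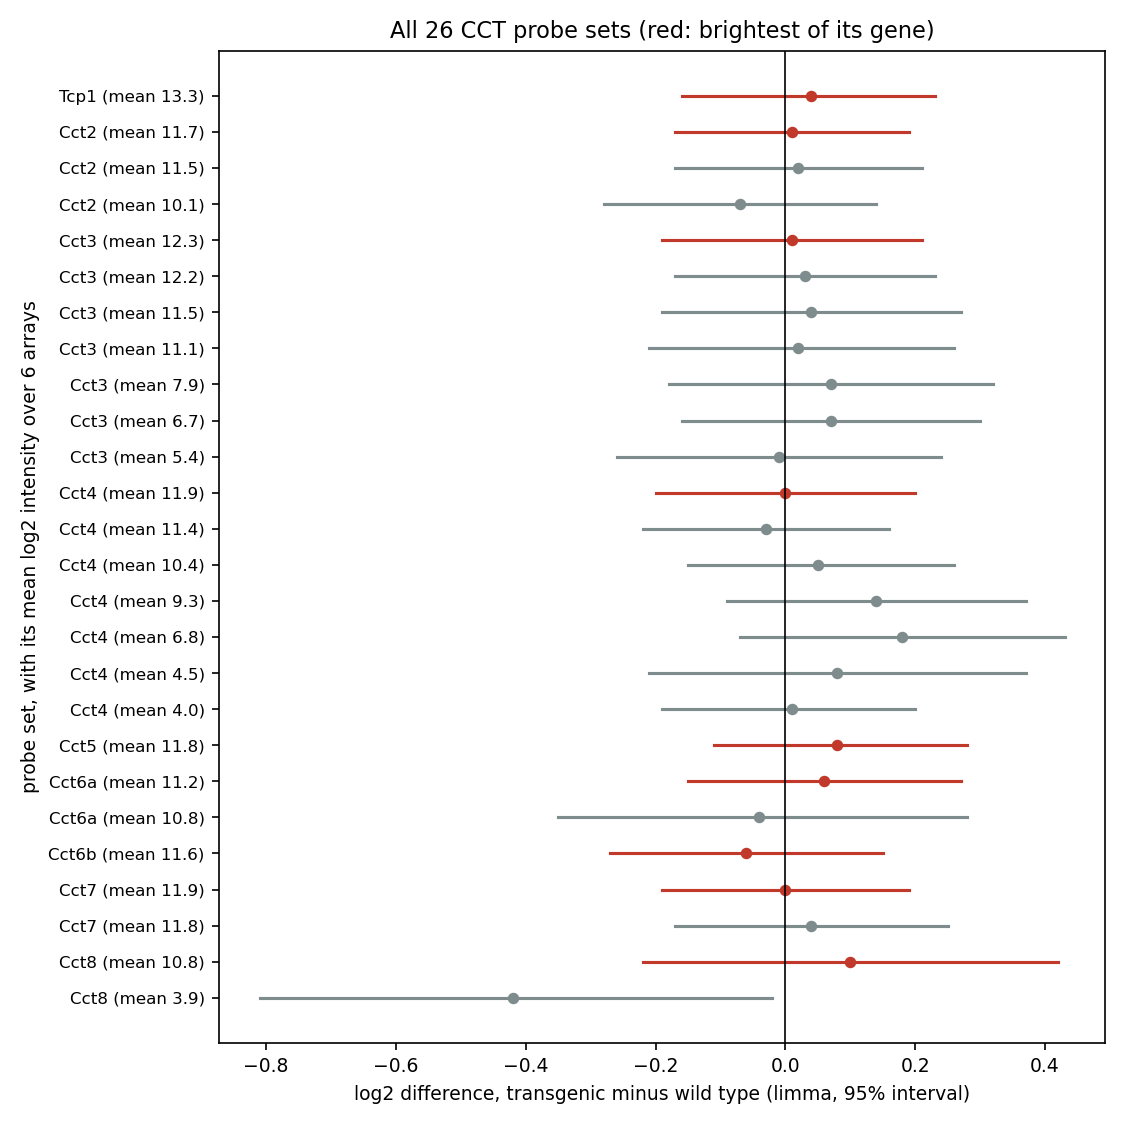
Log2 difference, transgenic minus wild type, of all 26 CCT probe sets with the 95% interval from limma; red marks the brightest probe set of each gene, and labels give the mean log2 intensity over 6 arrays. Of the intervals, 25 include 0, and the dim Cct8 probe set at the bottom, at -0.42, does not before adjustment.

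Cct6a and Cct6b are alternative zeta subunits. Their promoters are shown because the DNA site of DREAM, the downstream regulatory element, has a core spelled GTCA. The windows run from 250 bases before to 50 after the annotated start, in RefSeq sequence of build GRCm38.p6, and capitals mark GTCA or its reverse complement TGAC. Cct6b lies on the minus strand at chr11:82764272-82764571 and Cct6a on the plus strand at chr5:129787106-129787405.
Cct6b: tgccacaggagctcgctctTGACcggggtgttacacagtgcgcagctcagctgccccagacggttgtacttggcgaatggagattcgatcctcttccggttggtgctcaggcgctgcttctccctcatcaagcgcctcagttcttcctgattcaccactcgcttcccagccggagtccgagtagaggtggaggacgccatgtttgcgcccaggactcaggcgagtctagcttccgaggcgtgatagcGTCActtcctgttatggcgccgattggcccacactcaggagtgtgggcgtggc
Cct6a: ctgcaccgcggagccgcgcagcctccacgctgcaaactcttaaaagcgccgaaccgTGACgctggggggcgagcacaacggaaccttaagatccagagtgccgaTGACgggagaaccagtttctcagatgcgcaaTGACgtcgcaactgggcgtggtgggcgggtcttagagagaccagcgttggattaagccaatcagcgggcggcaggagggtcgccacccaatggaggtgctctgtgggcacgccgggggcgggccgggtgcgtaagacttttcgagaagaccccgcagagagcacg
Cct6b has 2 such matches and Cct6a 3. In 1 of the 2 Cct6b matches and all 3 Cct6a matches, the letters, read on one strand or the other, are part of TGACG, the half-site of the cyclic AMP response element. A match is a description of the letters and not a bound site.

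Cct6b read 11.70, 11.50 and 11.58 in transgenic testis and 11.58, 11.69 and 11.68 in wild type. Transgenic replicate 1 was the highest of the 6 arrays and transgenic replicate 2 the lowest, and all 3 wild-type arrays lay between them. The mean was 11.59 ± 0.10 in transgenic and 11.65 ± 0.06 in wild-type testis (SD, n = 3), a difference of -0.06 (SE 0.09, limma adjusted p = 0.976). The 95% interval of -0.27 to 0.15 is a ratio of 0.832-fold to 1.11-fold. With the Gapdh difference as a covariate the sign turned, to 0.09 (adjusted p = 0.872), and it was -0.11 without transgenic replicate 1 and -0.01 without transgenic replicate 2.

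Cct6a read 11.30, 11.20 and 11.22 in transgenic and 11.12, 11.29 and 11.13 in wild-type testis. All 3 transgenic arrays lay above wild type replicates 1 and 3, and wild type replicate 2 lay among them. The difference was 0.06 (SE 0.09, 95% interval -0.15 to 0.27, adjusted p = 0.973). The second Cct6a probe set read 11.07, 10.76 and 10.63 in transgenic and 10.64, 11.03 and 10.90 in wild-type testis, a difference of -0.04 with an interval of -0.35 to 0.28. With the Gapdh covariate it was 0.54 (adjusted p = 0.377). The 2 probe sets of Cct6a thus gave opposite signs, each within its error.

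Within an array, the log2 reading of Cct6b minus that of Cct6a follows the balance of the paralogues in whole testis RNA. Only its change between groups can be read, since the levels of different probe sets are not on one scale. In such a change, the mix of cells and the level per cell cannot be told apart. With the brighter Cct6a probe set the reading was 0.40, 0.30 and 0.36 in transgenic and 0.46, 0.40 and 0.55 in wild-type testis. The transgenic arrays lay at or below the lowest wild-type array. The means were 0.35 ± 0.05 in transgenic and 0.47 ± 0.08 in wild-type testis (SD, n = 3), a difference of -0.12 with an exact permutation p of 0.2 (two-sided, 20 splits, smallest possible 0.1). With the other Cct6a probe set the difference was -0.02 (0.77 ± 0.16 in transgenic and 0.79 ± 0.14 in wild type, exact permutation p = 0.8). Since no difference of any size can pass 0.05 in this exact test, it does not settle whether the balance shifted, and the value depended on which Cct6a probe set was used.

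**Figure D3:**
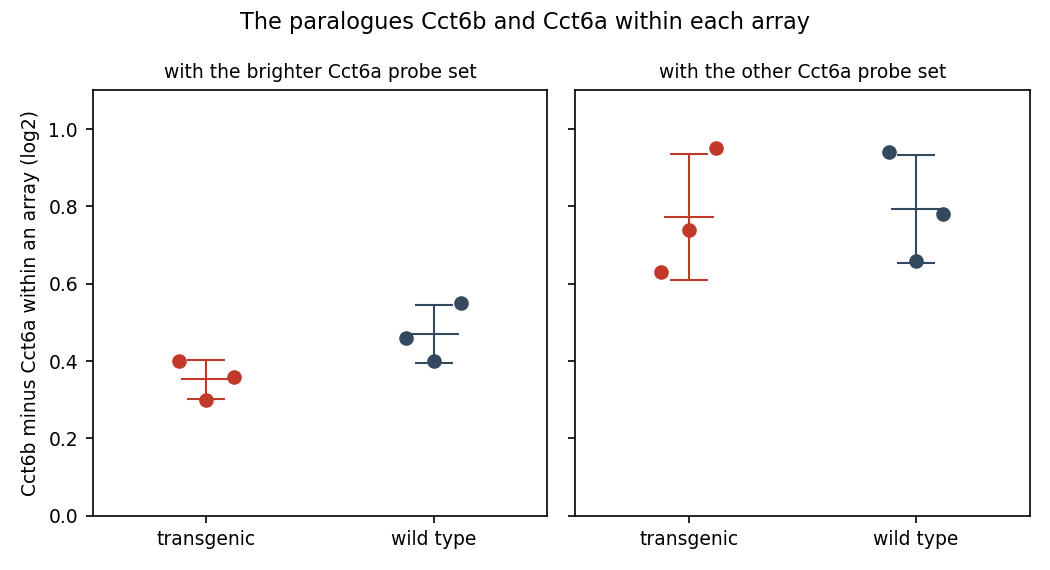
Cct6b minus Cct6a (log2) within each transgenic (left) and wild-type (right) testis array, for the brighter Cct6a probe set (left panel) and the other one (right panel); points are arrays, bars the mean and SD. The means are 0.35 in transgenic and 0.47 in wild type in the left panel, and 0.77 in transgenic and 0.79 in wild type in the right panel.

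In some arrays of both genotypes most subunits lay on the same side of their own mean. Each brightest probe set was centred on its own mean over the 6 arrays. In transgenic replicate 1 all 9 subunits lay above their own mean, by a median of 0.08. Cct2 did so by only 0.002, less than the last decimal of the deposited values. In transgenic replicate 2, 7 of 9 lay below it (median -0.05), and in wild type replicate 1, 8 of 9 (median -0.05). In wild type replicate 2, 7 of 9 lay above it (median 0.03). In transgenic replicate 3 and wild type replicate 3, 6 and 5 of 9 lay above it (medians 0.00 and 0.02). The 2582 probe sets with a mean of at least 10 had medians of 0.02, 0.00 and -0.01 in transgenic replicates 1, 2 and 3 and of -0.04, 0.03 and 0.01 in the wild-type ones. Wild type replicate 1 was thus low in bright probe sets at large as well, and the low CCT reading of transgenic replicate 2 had no counterpart there. The share of bright probe sets on one side of their own mean was not counted. Whether a joint deviation is particular to CCT was not tested.

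**Figure D4:**
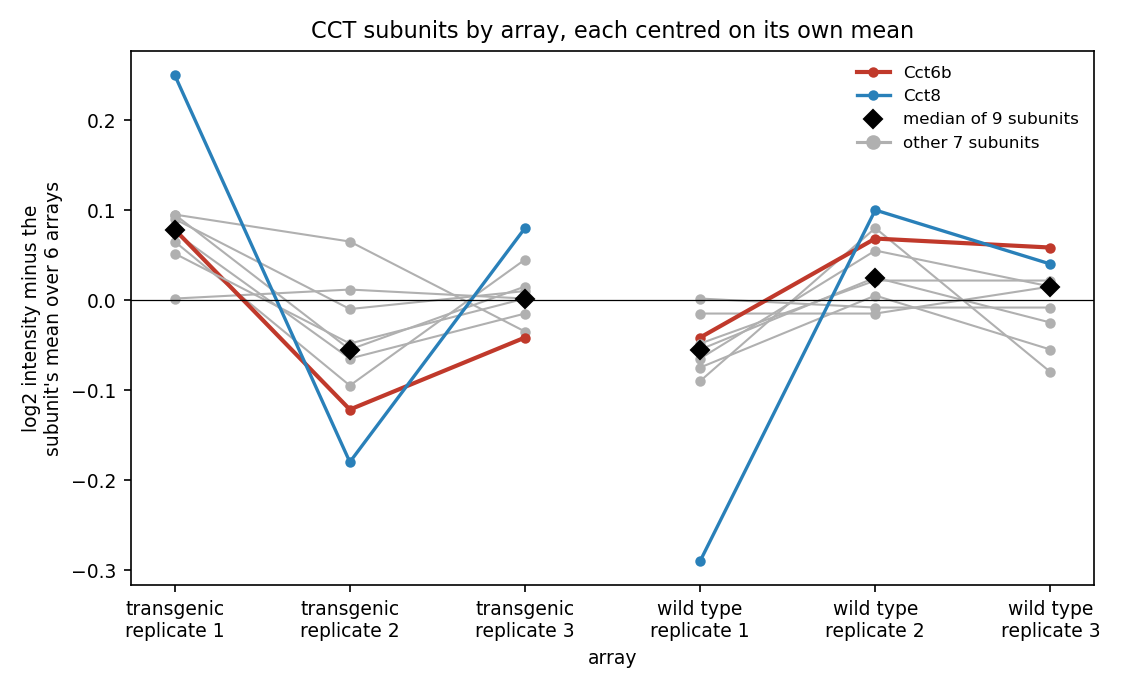
Log2 intensity of each CCT subunit minus its own mean over the 6 arrays, by array; lines join the values of 1 subunit within a genotype, the arrays have no order, and diamonds are the median of the 9 subunits. Transgenic replicate 1 lies above 0 in all 9 subunits (median 0.08, Cct2 by only 0.002), while transgenic replicate 2 and wild type replicate 1 have medians of -0.05.

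Genes with the profile most like that of Cct6b were sought among 6059 other genes, each by its brightest probe set, with a mean of at least 7 and an SD over the arrays of at least 0.1. The SD filter left out steadier genes, among them every CCT subunit but Cct8. Genes outside the filter, other subunits included, may therefore lie as close as those named. Likeness was the root mean square difference of centred log2 values over 6 arrays. Among the candidates the closest were Actb (0.0257), which encodes beta-actin, Akirin2 (0.0279), a nuclear factor, and Polr2h (0.0311), a subunit shared by the nuclear RNA polymerases. Actb read 12.81, 12.55 and 12.69 in transgenic and 12.64, 12.80 and 12.75 in wild-type testis, again highest in transgenic replicate 1 and lowest in transgenic replicate 2. For Cct5 the closest candidates were Immt (0.0314), of the mitochondrial inner membrane, Ebag9 (0.0367) and Rplp2 (0.0391), a ribosomal stalk protein.

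A RefSeq promoter window was matched for 8 of the 9 genes, all but Cct4, with 10 windows among them. Their GC content had a median of 60.3%, against 52.7% over all 32851 windows, and the median number of CpG dinucleotides was 25 against 7. GTCA, on either strand, was found in 7 of the 10 windows and in 85.2% of all windows. TGACG, which holds the reverse complement of GTCA, was found in Cct6a and Cct6b and in 20.8% of all windows. The full site TGACGTCA was in none of the 10 and in 1.79% of all. CCAAT was found in Tcp1, Cct3, Cct6a, Cct6b and Cct7 and in 37.4% of all windows. A heat shock element unit, spelled GAANNTTC, was found in Cct2 alone of these genes and in 7.86% of all windows. Every motif was searched on both strands, and the full site TGACGTCA contains both GTCA and TGACG.

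Most of the genes also shared a layout. In 7 of the 8 genes (87.5%) the window overlapped that of a gene that starts on the other strand and points away, against 10.9% of all 27025 genes with a window. The share among genes with a like number of CpG dinucleotides was not counted. The pairs are Tcp1 with Mrpl18 (a mitochondrial ribosomal protein), Cct3 with Tsacc (a co-chaperone of testis-specific serine kinases), Cct5 with Atpsckmt, Cct6a with Psph (the last enzyme of serine synthesis), Cct6b with Zfp830, Cct7 with Pradc1 and Cct8 with B130034C11Rik. These neighbours were singled out after their values could be seen. None of the 7 passed between genotypes. Tsacc read 12.01, 11.97 and 11.96 in transgenic and 11.93, 12.03 and 12.12 in wild-type testis, a difference of -0.05 (adjusted p = 0.978). Zfp830, beside Cct6b, read 9.16, 9.21 and 9.16 in transgenic and 9.16, 9.20 and 9.18 in wild type, and its brightest probe set stayed within 0.05 log2 units over the 6 arrays. The widest difference among the neighbours was that of Pradc1, 0.26 (95% interval -0.12 to 0.65, adjusted p = 0.888).

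Around the chaperonin, 9 lists of partners, clients and relatives held 84 genes, of which 75 were measured. None passed (limma, adjusted p under 0.05, beside 0.444% of all probe sets), and 4 had an unadjusted p under 0.05 (5.33%, beside 6.69%). The median difference, transgenic minus wild type on the log2 scale, was 0.03, with 44 above 0 and 31 below. Each gene is given by its brightest probe set.

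None of the prefoldin genes or of the phosducin-like partners of CCT passed. Of the 6 prefoldin genes 3 lay above 0 and 3 below, and the smallest p belonged to Pfdn2 (0.15, adjusted p = 0.935) and Pfdn4 (-0.09, adjusted p = 0.961). Of the 4 phosducin-like and thioredoxin-like partners, Pdcl differed by 0.25 (adjusted p = 0.795) and Txndc9 by -0.11 (adjusted p = 0.971). Pdcl2, the testis member of that group, named outside the rule for its tissue, read 12.37, 12.43 and 12.29 in transgenic and 12.29, 12.40 and 12.41 in wild-type testis. Its groups overlapped and the 95% interval was -0.20 to 0.20.

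All 3 chaperonin-like genes of Bardet-Biedl syndrome lay below 0, where Bbs10 differed by -0.15 and Mkks by -0.05 (adjusted p = 0.962 and 0.986). The mitochondrial chaperonin genes Hspe1 and Hspd1 differed by 0.11 and 0.04 (adjusted p = 0.955 and 0.985). Of the 3 measured heat shock factors, a family that controls chaperone genes, Hsf4 differed by 0.07 and Hsf2 by 0.05 (limma adjusted p = 0.979 and 0.98). The Hsf2 mean of 5.52 lay under the array medians. Hsf1 had no probe set of its own and was not measured.

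Among clients, the 16 measured tubulin genes had 13 differences above 0 and a median of 0.10. Tubb6, a beta-tubulin gene, read 8.79, 9.15 and 8.71 in transgenic and 8.21, 8.56 and 8.36 in wild-type testis. All transgenic arrays lay above all wild-type ones, and the difference was 0.51 (SE 0.14, 95% interval 0.20 to 0.82, unadjusted p = 0.00502). It did not pass over the whole table (adjusted p = 0.308), but did with array weights (adjusted p = 0.0305), where 2.35% of all probe sets passed and Tubb6 was the 1 of 75 list genes that did (1.33%). The other Tubb6 probe set gave 0.33 (adjusted p = 0.633), with groups that overlapped. Tubb1 differed by 0.30 (adjusted p = 0.513) and Tuba3b, named because it is the third at an unadjusted p under 0.05, by 0.26 (adjusted p = 0.636), both at means under the array medians.

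Of 20 measured actin and actin-related genes, 13 were above 0 and 7 below, between -0.11 and 0.14, and none had an unadjusted p under 0.05. Actc1, cardiac actin, differed by 0.14 and Actrt3, an actin-related gene of testis, by 0.13 (adjusted p = 0.867 and 0.931). The spermatid genes Actl7a and Actl7b, named outside the rule for their tissue, differed by 0.05 and -0.04 (adjusted p = 0.974 and 0.982). Among 8 tubulin folding cofactors and related genes, Arl2 read 8.24, 8.34 and 8.40 in transgenic and 8.51, 8.55 and 8.54 in wild-type testis. Its groups did not overlap, as in 11.3% of all probe sets, with a difference of -0.21 (limma, unadjusted p = 0.0415, adjusted p = 0.72). The other Arl2 probe set gave -0.09 (limma adjusted p = 0.967), with groups that overlapped. Tbce differed by -0.18 (adjusted p = 0.783). Of 13 other reported clients, Gnb5, a G protein beta subunit, differed by 0.15 and Stat3 by -0.14 (adjusted p = 0.912 and 0.924).

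**Figure D5:**
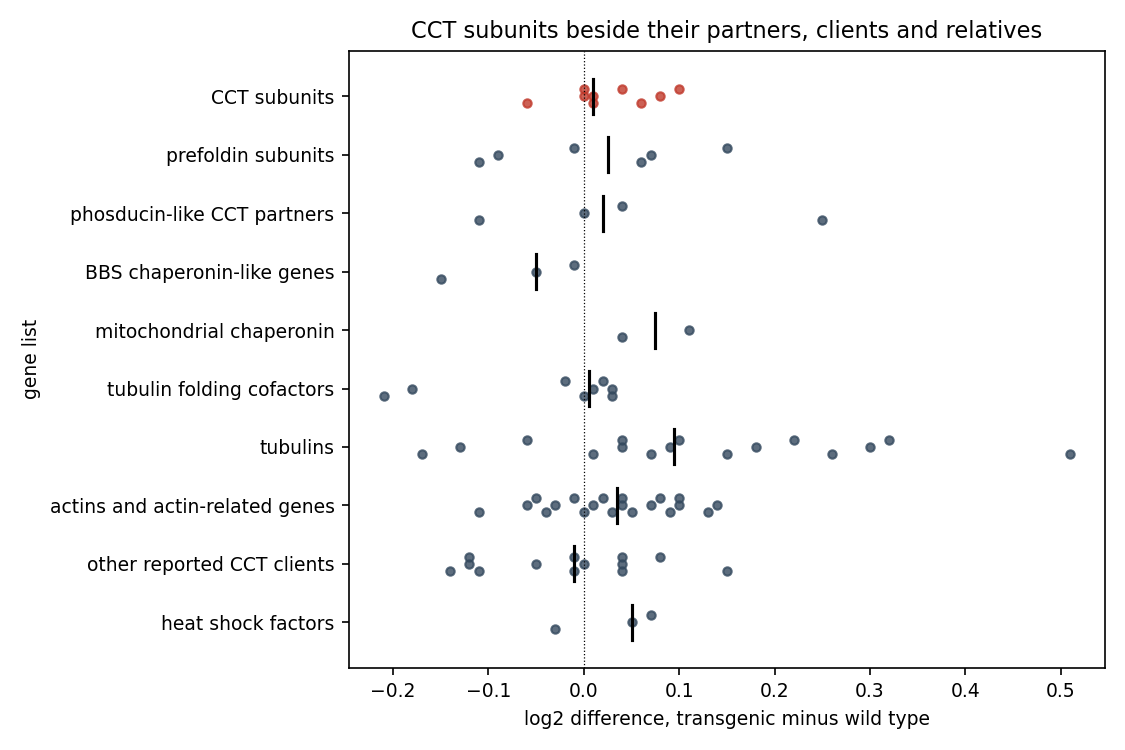
Log2 difference, transgenic minus wild type, of the 9 CCT subunits (red, brightest probe set) and of 75 genes of 9 related lists (blue); each point is a gene and bars are medians. The CCT subunits lie between -0.06 and 0.10, and the point farthest right is Tubb6 at 0.51.

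Levels of cell type markers were read on the same arrays, and the markers named here were picked after their values were seen. Meiotic spermatocyte markers lay below 0 in 6 of 6 genes (median -0.30), with mean levels of 9.04 to 9.18 per array in transgenic and 9.41 to 9.43 in wild-type testis. Of them Meiob, Spo11 and Sycp1 had an unadjusted p under 0.05 (smallest adjusted p = 0.303), beside 6.69% of all probe sets. Endothelial markers lay above 0 in 4 of 4 (median 0.27), at 5.19 to 5.25 in transgenic and 4.86 to 4.99 in wild-type testis. All 4 endothelial markers had means under the array medians, with no detection call to say whether they read transcript. Of them Tek, Emcn and Pecam1 had an unadjusted p under 0.05 (smallest adjusted p = 0.237).

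Macrophage markers lay above 0 in 4 of 4 (median 0.16, Csf1r at an unadjusted p under 0.05) and adipocyte markers in 3 of 3 (median 0.20). Myoid markers lay below 0 in 4 of 4 (median -0.10, Myh11 at an unadjusted p under 0.05) and round spermatid markers in 6 of 6 (median -0.06). Spermatogonial, elongating spermatid, Sertoli and erythroid markers lay on both sides of 0, with medians of 0.04, 0.00, -0.01 and 0.01. None of these 10 lists had a member past the adjusted threshold. Of 4 Leydig markers Hsd3b1 was higher in transgenic testis (1.48, limma adjusted p = 0.00109), while Star, Cyp17a1 and Cyp11a1 differed by 0.01, 0.03 and -0.06 and did not pass. Of 3 epididymis markers Lcn2 was higher (0.98, limma adjusted p = 0.0172), while Lcn5 and Lcn8 differed by 0.04 and 0.07 and did not pass. The part of these cell types in the CCT readings was not tested.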

How the data were processed

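Per the labels' protocols, biotin-labelled cRNA from 4 µg of total testis RNA (TRIzol and a column kit) went onto Affymetrix mouse genome expression arrays, 1 per sample. Each deposited value is the log2 intensity of a probe set, made with RMA and the affy package per the submitters' processing notes. RMA equalises the arrays, so a shift of all transcripts is not visible, and dim probe sets carry no detection call.

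Of 45101 probe sets, 64 controls were left out and 45037 tested, with no filter on dim ones. Genes come from the platform annotation (34945 probe sets with 1 gene, 932 with several, 9160 with none), with symbols updated by gene ID from RefSeq GRCm38.p6 (34741 matched). The test was limma 3.58.1 (R 4.3.3) with transgenic minus wild type, two-sided, adjusted by Benjamini-Hochberg over all tested. The test was checked on simulated data.

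All CCT probe sets are reported, with every array for the brightest of each gene (highest mean over 6 arrays) and for any other with an unadjusted p under 0.05. Each list of CCT partners, clients and relatives names members past the threshold, or else the 2 of smallest p, and for Cct6b and the subunit of smallest p the 3 nearest profiles. The largest Cct4 difference and the second Cct6a probe set were given by array after their values were seen. The members and lists were chosen with earlier results of these data known. The submitters call the arrays independent biological replicates, and no 2 were identical. Arrays of the same replicate number did not deviate together. The number of arrays limits the precision. Alternatives were filters, normalization, variance model, array weights (gene by gene, since REML did not converge), replicate block, Gapdh covariate, probe set class, averaging and leaving out each array.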

Additional observations from a re-analysis of the deposited data

How the results depend on the processing

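Under all 16 alternatives 0 CCT probe sets passed, the smallest adjusted p being 0.228, and 52 of 376 differences of member probe sets changed sign without passing. By the brightest probe set or the mean of a gene's probe sets, values ranged from -0.16 (Cct8, averaged) to 0.45 (Cct8 with the Gapdh covariate). Over all member probe sets they ranged from -0.56 (the dim Cct8 probe set without wild type replicate 1) to 0.54 (the second Cct6a probe set with the Gapdh covariate). With that covariate Cct6b read 0.09 (limma adjusted p = 0.872). The Gapdh difference did not overlap between the genotypes, so that fit separates the covariate from genotype only poorly. Leaving out 1 array gave Cct6b differences of -0.11 to -0.01. Of the list genes 1, Tubb6, passed with array weights and 0 under the other 15. Over the whole table, calls numbered 306 with a trended and robust variance, 1058 with array weights, 117 with the replicate block and 18 with the Gapdh covariate, against 200, and ran from 70 to 429 when 1 array was left out, highest without wild type replicate 2. The Cct6b minus Cct6a difference was -0.02 with the other Cct6a probe set and ran from -0.15 to -0.08 with 1 array left out. The replicate numbers did not pair the arrays (correlations of -0.32, -0.07 and -0.01 between same-numbered arrays), and the block left Cct6b at -0.06 (adjusted p = 0.995) and the paralogue difference at -0.12 (exact p = 0.25, the smallest that 3 pairs allow). The cause of these movements was not tested.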
